A study of Mus musculus with 4 samples.

Results

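Transcripts of the immunoglobulin heavy, kappa and lambda loci were followed in GMPs and MPPs that lacked Bcl11a and in their WT counterparts. The members were chosen by gene symbol, as every probe set of the array with a symbol that starts with Igh, Igk or Igl followed by a, c, d, e, g, j, m or v. Ighmbp2 and Igll1 were left out, and probe sets with several symbols were kept. This gave 31 of 28853 probe sets, 10 of the heavy locus, 19 of the kappa locus and 2 of the lambda locus, which together carried 30 immunoglobulin symbols. The family was selected with earlier results of these arrays known, so its differences between genotypes are a description and carry no test.

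An antibody is built from a heavy chain and a kappa or lambda light chain. In B cell precursors the Rag recombinase joins variable (V), diversity (D) and joining (J) segments of a locus, and the assembled variable region is spliced to a constant region that sets the class of the antibody. Unrearranged loci can also be transcribed in early lymphoid cells, and antibody-secreting plasma cells hold the highest amounts of immunoglobulin mRNA.

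Gene expression was measured on 4 oligonucleotide arrays, 1 each for Bcl11a-/- GMPs, WT GMPs, Bcl11a-/- MPPs and WT MPPs. Bcl11a encodes a zinc finger transcription factor that B cell development needs, and the null allele lacks its first exon. Every recipient was a B6.SJL mouse that had been lethally irradiated with 1200 rad and had received fetal liver cells of either donor genotype. The labels list B6.SJL as the genetic background of all 4 samples and 4 weeks as the time between transfer and sort, while the study's methods also allow a later time. Donor-derived, lineage-negative BM cells were sorted as GMPs, which form granulocytes and macrophages, or as CD150-negative LSK cells, called MPPs, which can still form all blood lineages. Cells were pooled by donor genotype, and the number and age of the pooled mice are not given in the sources used here. Each condition had a single array, so nothing below could be set against replicate error and no test was run.

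Each probe set has 1 log2 signal per array, and the medians over all probe sets lay between 5.50 and 5.70. Bcl11a itself was 1.78-fold lower in Bcl11a-/- than in WT GMPs and 2.39-fold lower in Bcl11a-/- than in WT MPPs; probes outside the deleted exon may still find transcript, so this is a weak check of the labels. The median of the GMP markers set the sorted populations apart. The 8 GMP marker genes had a median log2 signal of 8.46 in Bcl11a-/- MPPs and 9.83 in WT MPPs, against 12.1 in Bcl11a-/- GMPs and 12.2 in WT GMPs. The MPP and LSK list, with 7 genes measured, did so less in WT cells. In WT MPPs 2 of its genes were more than 2-fold higher than in WT GMPs (median log2 difference 0.83). In Bcl11a-/- MPPs 5 were more than 2-fold higher than in Bcl11a-/- GMPs (1.23). Some markers also moved with genotype. Of the 8 GMP genes, 4 were more than 2-fold lower in Bcl11a-/- MPPs (median log2 difference −1.38) and 0 in Bcl11a-/- GMPs (−0.06). Of 7 measured MPP and LSK genes, 1, Flt3, was lower by that much in Bcl11a-/- MPPs, and the median differences were 0.13 in both populations. Of 5 measured red cell genes, 4 were more than 2-fold higher in Bcl11a-/- GMPs (median 1.74) and 0 in Bcl11a-/- MPPs (0.45). The part of these shifts in the immunoglobulin differences was not tested.

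Most immunoglobulin probe sets were dim. Their median log2 signal was 4.04 in Bcl11a-/- GMPs and 5.06 in WT GMPs, and 4.44 in Bcl11a-/- MPPs and 5.46 in WT MPPs. A log2 signal of at least 6 was reached by 1 member in Bcl11a-/- GMPs and 8 in WT GMPs, and by 3 in Bcl11a-/- MPPs and 8 in WT MPPs, whereas 42.5% to 44.3% of all probe sets reached it. As a measure of the floor of the array, the 95th percentile of 1135 olfactory receptor probe sets, genes that blood cells are not known to use, lay at 4.97 in Bcl11a-/- GMPs and 5.01 in WT GMPs, and at 5.37 in Bcl11a-/- MPPs and 5.17 in WT MPPs. Of the 31 members, 4 lay above it in Bcl11a-/- GMPs and 16 in WT GMPs, and 5 lay above it in Bcl11a-/- MPPs and 19 in WT MPPs. In 9 members the signal exceeded this level on both WT arrays and on neither Bcl11a-/- array, no member did the reverse, and 10 members exceeded it on no array. The share of all probe sets with the first pattern was not counted, nor was their share above the level on each array. The level is set for each array, and 1 of the 9, 10545198, had 5.35 in Bcl11a-/- MPPs, between the levels of the MPP arrays.

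**Figure D1:**
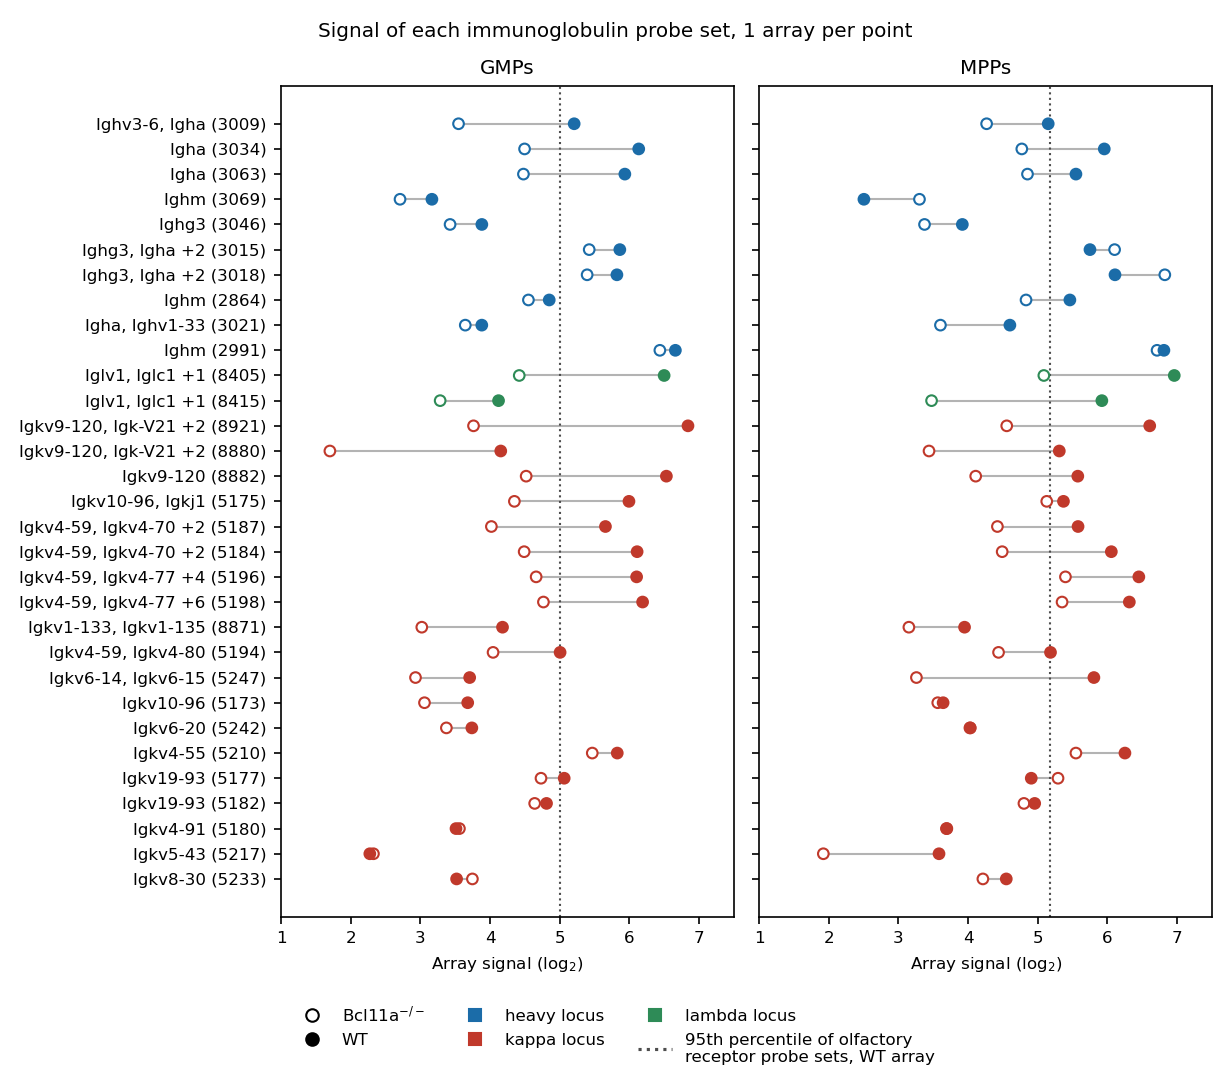
Log2 array signal (x axis) of the 31 immunoglobulin probe sets in GMPs (left) and MPPs (right), open circles for Bcl11a-/- and filled circles for WT, 1 array per point, with the last 4 digits of the probe set number in parentheses and "+2" and the like for further symbols. The dotted line is the olfactory receptor level on the WT array of each population, 5.01 in GMPs and 5.17 in MPPs, and 16 and 19 filled circles lie above it.

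Immunoglobulin signal was lower in Bcl11a-/- than in WT cells in both populations. In GMPs 13 of 31 members were lower by more than 2-fold, the threshold of the study, where 0.35% of all probe sets were, and no member was higher to that extent, where 0.319% of all probe sets were. In MPPs 11 members were lower by more than 2-fold, beside 2.51% of all probe sets, and none was higher, beside 1.39%. The median log2 difference, Bcl11a-/- minus WT, was −0.78 over the members and 0.01 over all probe sets in GMPs, and −0.75 over the members and 0.05 over all probe sets in MPPs. Counted at any size, 28 members were lower and 3 higher in Bcl11a-/- GMPs, and 26 were lower and 5 higher in Bcl11a-/- MPPs. Of all 28853 probe sets, 13841 were lower and 14921 higher in Bcl11a-/- GMPs, and 12702 were lower and 16081 higher in Bcl11a-/- MPPs. In pooled cells, fewer cells of a type and less RNA per cell cannot be told apart. With signals under a log2 value of 5 set to 5, 7 members stayed lower by more than 2-fold in GMPs and 4 in MPPs, and the medians over the members were −0.065 and −0.18. With this floor 0.17% of all probe sets were lower by more than 2-fold in GMPs and 2.25% in MPPs.

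On 22 of the 31 members both Bcl11a-/- arrays read below both WT arrays, a pattern found in 9.79% of all probe sets, and on none did both read above, a pattern found in 15.4%. The remaining 9 members had signals that overlapped between the genotypes. In MPPs the probe set nearest inside the 2-fold limit was 10545196, of Igkc and 5 V segments, 2.08-fold lower, and the nearest outside was 10403021, of Igha and Ighv1-33, 1.996-fold lower. In GMPs the nearest inside was 10538871, of Igkv1-133 and Igkv1-135, 2.23-fold lower, and the nearest outside was 10545194, of Igkv4-59 and Igkv4-80, 1.95-fold lower. The largest difference upward was 0.23 on the log2 scale for Igkv8-30 in GMPs and 0.80 for 1 Ighm probe set, 10403069, in MPPs, and both of these probe sets stayed under the olfactory receptor level on all 4 arrays.

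**Figure D2:**
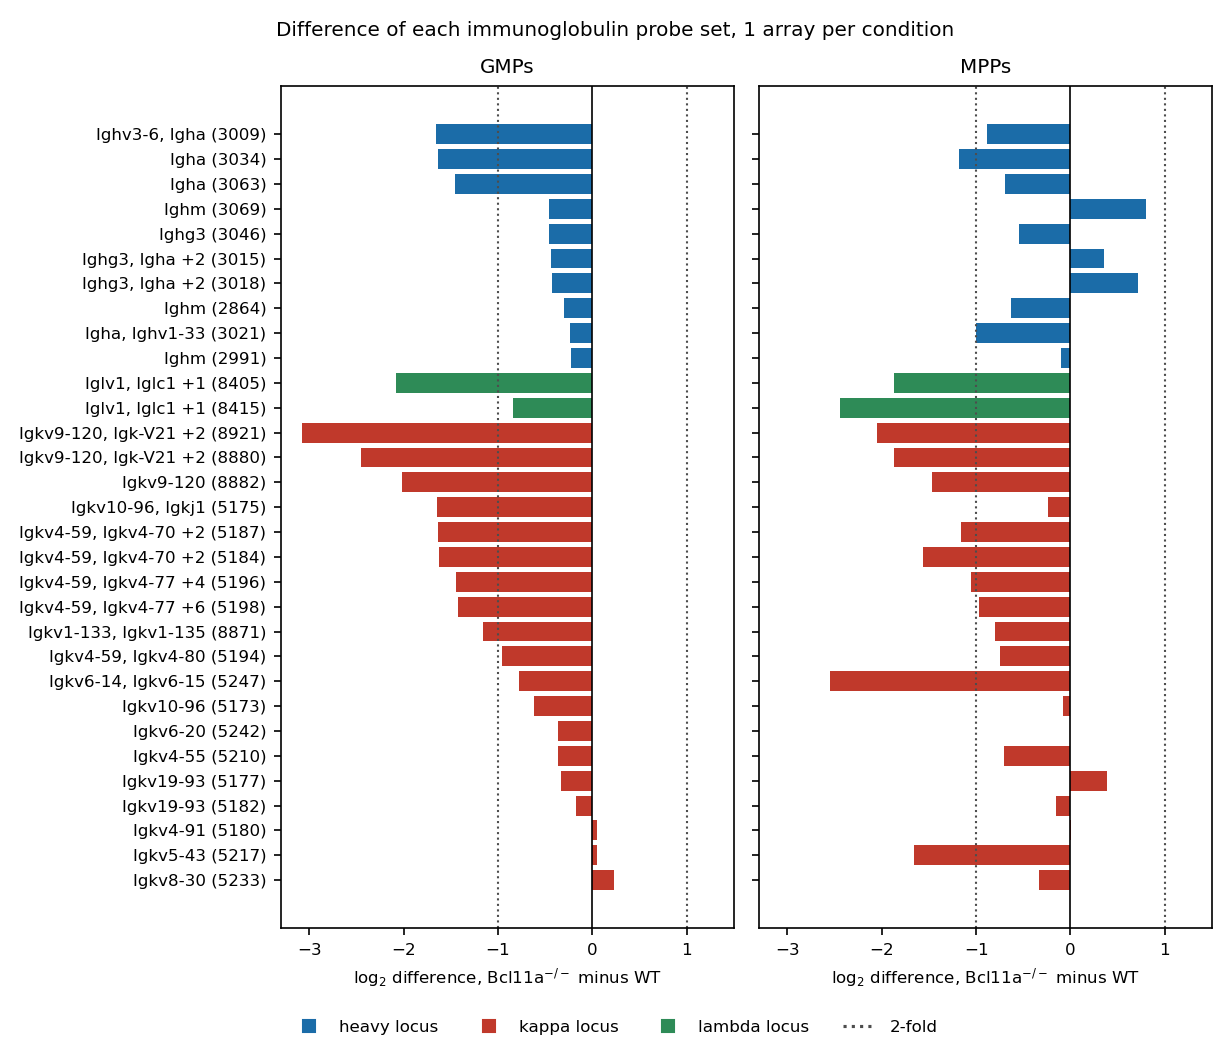
Log2 difference, Bcl11a-/- minus WT (x axis), of each immunoglobulin probe set in GMPs (left) and MPPs (right), coloured by locus, from a single array of each kind and labelled as in the plot of signals. Dotted lines mark 2-fold, and the bars of 13 members pass it downward in GMPs and those of 11 in MPPs, with none upward.

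A symbol does not place a probe set within its locus. The annotation pairs a probe set with genes through the mRNAs it matches, and a rearranged mRNA joins a V segment to a constant region. By the symbols, 6 members carried constant region symbols alone, all of the heavy locus, 10 carried constant and variable symbols, and 15 carried V or J symbols alone, all of the kappa locus. In GMPs the median log2 difference was −0.46 for the members with constant symbols alone, −1.43 for those with both kinds and −0.62 for those with V or J symbols alone, and 2 of 6, 6 of 10 and 5 of 15 passed 2-fold downward. In MPPs these medians were −0.59, −1.03 and −0.70, with 1 of 6, 5 of 10 and 5 of 15 lower by more than 2-fold. By locus, the median in GMPs was −0.45 for the heavy, −0.96 for the kappa and −1.46 for the lambda locus, and in MPPs it was −0.59, −0.80 and −2.16.

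Members with several symbols differed more than members with 1. Of the 16 with several symbols, 10 passed 2-fold downward in Bcl11a-/- GMPs and 8 in Bcl11a-/- MPPs, with medians of −1.43 and −1.03. Of the 15 with 1 symbol, 3 were lower in each population, with medians of −0.36 and −0.34. Probe sets can also list the same mRNAs. By mRNA accessions in common, 19 members fell into 7 groups and 12 were tied to no other. By this measure the 31 members make 19 units, of which 8 held a member lower by more than 2-fold in GMPs and 7 in MPPs. Members of different units can still carry the same symbol, so the units are not all independent.

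Among the heavy chain constant regions, the 3 probe sets of Ighm, which encodes the constant region of IgM, the first class a B cell makes, stayed within 2-fold in both populations. The brightest, 10402991, had log2 signals of 6.44 in Bcl11a-/- GMPs and 6.66 in WT GMPs, and 6.71 in Bcl11a-/- MPPs and 6.81 in WT MPPs. All 4 arrays lay within a narrow range here, above the olfactory receptor level. Probe set 10402864 had 4.55 in Bcl11a-/- GMPs and 4.85 in WT GMPs, and 4.83 in Bcl11a-/- MPPs and 5.46 in WT MPPs, and only its WT MPP signal passed that level. Probe set 10403069 had 2.71 in Bcl11a-/- GMPs and 3.17 in WT GMPs, and 3.30 in Bcl11a-/- MPPs and 2.50 in WT MPPs, with the highest and the lowest of its signals both in MPPs.

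In each population the heavy chain probe set with the largest fall carried the symbol Igha. This gene encodes the constant region of IgA, the antibody class of mucosal secretions. The symbol does not show that these probe sets read the constant region itself. Probe set 10403034 had a log2 signal of 4.50 in Bcl11a-/- GMPs and 6.13 in WT GMPs, a 3.11-fold difference downward, and 4.77 in Bcl11a-/- MPPs and 5.95 in WT MPPs, a 2.27-fold difference downward. Both WT arrays read higher than both Bcl11a-/- arrays. The second Igha probe set, 10403063, had 4.48 in Bcl11a-/- GMPs and 5.94 in WT GMPs, 2.74-fold lower, and 4.85 in Bcl11a-/- MPPs and 5.55 in WT MPPs, a log2 difference of −0.70. These probe sets list the same 7 mRNA accessions and count as 1 unit. Of the 6 members that carry the Igha symbol, alone or with others, 3 were lower by more than 2-fold in GMPs and 1 in MPPs, with median log2 differences of −0.95 and −0.79.

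The other heavy chain probe sets did not share 1 pattern. Probe set 10403009, of Ighv3-6 and Igha, had a log2 signal of 3.55 in Bcl11a-/- GMPs and 5.21 in WT GMPs, 3.16-fold lower, and 4.26 in Bcl11a-/- MPPs and 5.15 in WT MPPs, a log2 difference of −0.88. Probe set 10403021, of Igha and Ighv1-33, had 3.64 in Bcl11a-/- GMPs and 3.88 in WT GMPs, and 3.60 in Bcl11a-/- MPPs and 4.60 in WT MPPs, so that only the WT MPP array stood apart. Ighg3, which encodes the constant region of an IgG subclass, had 3.43 in Bcl11a-/- GMPs and 3.88 in WT GMPs, and 3.37 in Bcl11a-/- MPPs and 3.92 in WT MPPs, all under the olfactory receptor level.

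The pair of probe sets annotated with Ighg3, Igha, Ighv1-33 and Ighv1-26 was among the few members above that level on all 4 arrays, and it ran in opposite directions in the 2 populations. Probe set 10403018 had a log2 signal of 5.39 in Bcl11a-/- GMPs and 5.82 in WT GMPs, a difference of −0.43, and 6.82 in Bcl11a-/- MPPs and 6.11 in WT MPPs, a difference of 0.72. Probe set 10403015 had 5.42 in Bcl11a-/- GMPs and 5.86 in WT GMPs, and 6.10 in Bcl11a-/- MPPs and 5.75 in WT MPPs. On both, the Bcl11a-/- MPP array was the highest of the 4 and the Bcl11a-/- GMP array the lowest, and no genotype difference reached 2-fold.

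The lambda locus was represented by a pair of probe sets with the symbols Iglv1, Iglc1 and Iglv2, V segments and a constant region of the lambda light chain, which have 1 of 7 accessions in common. Probe set 10438405 had a log2 signal of 4.42 in Bcl11a-/- GMPs and 6.50 in WT GMPs, 4.23-fold lower, and 5.09 in Bcl11a-/- MPPs and 6.96 in WT MPPs, 3.66-fold lower. It had the highest WT MPP signal of all 31 members, and both Bcl11a-/- arrays were under the olfactory receptor level. Probe set 10438415 had 3.28 in Bcl11a-/- GMPs and 4.12 in WT GMPs, and 3.47 in Bcl11a-/- MPPs and 5.92 in WT MPPs, 5.44-fold lower. On this probe set the WT MPP array alone was above that level, and with signals under 5 set to 5 its log2 difference in MPPs was −0.92.

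The 4 probe sets that carry Igkc, the gene of the kappa constant region used by every kappa light chain, all passed 2-fold downward in Bcl11a-/- GMPs, and 3 of the 4 were in Bcl11a-/- MPPs. Probe set 10545184 had a log2 signal of 4.49 in Bcl11a-/- GMPs and 6.11 in WT GMPs, 3.08-fold lower, and 4.49 in Bcl11a-/- MPPs and 6.05 in WT MPPs, 2.96-fold lower. Probe set 10545187, with the same symbols, had 4.02 in Bcl11a-/- GMPs and 5.66 in WT GMPs, 3.11-fold lower, and 4.42 in Bcl11a-/- MPPs and 5.58 in WT MPPs, 2.23-fold lower. The WT signals of each of these probe sets were nearly equal in MPPs and GMPs. Probe set 10545196 had 4.66 in Bcl11a-/- GMPs and 6.10 in WT GMPs, 2.72-fold lower, and 5.40 in Bcl11a-/- MPPs and 6.45 in WT MPPs, 2.08-fold lower. Probe set 10545198, annotated with Igkc and 7 V segments, had 4.77 in Bcl11a-/- GMPs and 6.19 in WT GMPs, 2.68-fold lower, and 5.35 in Bcl11a-/- MPPs and 6.31 in WT MPPs, 1.95-fold lower. All 4 belong to 1 group of 7 kappa members tied by shared accessions, so they are not separate observations.

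The 3 probe sets that carry Igkv9-120, a kappa V segment, were lower by more than 2-fold in both populations, and 1 of them had the largest difference of the family in GMPs. Probe set 10538921, which carries Igkv9-120, Igk-V21, Igkv1-117 and Map3k20, had a log2 signal of 3.76 in Bcl11a-/- GMPs and 6.84 in WT GMPs, 8.45-fold lower, and 4.55 in Bcl11a-/- MPPs and 6.61 in WT MPPs, 4.15-fold lower. It was the brightest member in WT GMPs. Probe set 10538880, with the same symbols, had 1.70 in Bcl11a-/- GMPs and 4.15 in WT GMPs, 5.47-fold lower, and 3.44 in Bcl11a-/- MPPs and 5.31 in WT MPPs, 3.66-fold lower. Only its WT MPP signal was above the olfactory receptor level, and with signals under 5 set to 5 its log2 difference in MPPs was −0.31. Probe set 10538882, of Igkv9-120 alone, had 4.52 in Bcl11a-/- GMPs and 6.53 in WT GMPs, 4.04-fold lower, and 4.11 in Bcl11a-/- MPPs and 5.57 in WT MPPs, 2.76-fold lower. Map3k20 encodes a kinase outside the immunoglobulin loci, and a probe set with its symbol alone had log2 signals of 7.14 in Bcl11a-/- GMPs and 7.26 in WT GMPs, and 6.88 in Bcl11a-/- MPPs and 6.97 in WT MPPs.

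Other kappa V probe sets were lower by more than 2-fold in 1 population. Igkv10-96 with Igkj1, on 10545175, had a log2 signal of 4.35 in Bcl11a-/- GMPs and 5.99 in WT GMPs, 3.13-fold lower, and 5.13 in Bcl11a-/- MPPs and 5.37 in WT MPPs. On this probe set the Bcl11a-/- GMP array was the lowest and the WT GMP array the highest. Igkv1-133 with Igkv1-135 had 3.02 in Bcl11a-/- GMPs and 4.18 in WT GMPs, and 3.15 in Bcl11a-/- MPPs and 3.95 in WT MPPs, all under the olfactory receptor level. Igkv6-14 with Igkv6-15, on 10545247, had 2.93 in Bcl11a-/- GMPs and 3.71 in WT GMPs, and 3.26 in Bcl11a-/- MPPs and 5.80 in WT MPPs, 5.85-fold lower. Only the WT MPP array was high on that probe set, and with signals under 5 set to 5 its log2 difference in MPPs was −0.80. Igkv5-43 had 2.33 in Bcl11a-/- GMPs and 2.27 in WT GMPs, and 1.92 in Bcl11a-/- MPPs and 3.58 in WT MPPs, 3.16-fold lower, with all 4 signals under the olfactory receptor level.

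The remaining 8 kappa probe sets stayed within 2-fold in both populations, with log2 differences between −0.96 and 0.23 in GMPs and between −0.75 and 0.38 in MPPs. Igkv4-55 was the member of these above the olfactory receptor level on all 4 arrays, with 5.47 in Bcl11a-/- GMPs and 5.83 in WT GMPs, and 5.55 in Bcl11a-/- MPPs and 6.25 in WT MPPs. Igkv4-59 with Igkv4-80 lay close to the limit, with 4.04 in Bcl11a-/- GMPs and 5.01 in WT GMPs, and 4.44 in Bcl11a-/- MPPs and 5.18 in WT MPPs. Igkv4-91 differed by 0.05 in GMPs and 0.01 in MPPs.

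The members lower by more than 2-fold in both populations numbered 8, where 0.121% of all probe sets were lower in both. They made up 61.5% of the 13 members lower in GMPs and 72.7% of the 11 lower in MPPs. They were 1 Igha probe set, 1 lambda probe set, the 3 Igkv9-120 probe sets and 3 of the Igkc probe sets. By shared accessions they came from 5 of the 19 units, which keep 10538882 apart from the other Igkv9-120 probe sets. Each of the 8 was further below WT in GMPs than in MPPs. With signals under 5 set to 5, the members lower by more than 2-fold in both were 10438405 of the lambda locus, 10538921 of Igkv9-120, and 10545184 and 10545196 of Igkc. In total 16 members were lower in at least 1 population, 5 of them in GMPs only and 3 in MPPs only. Whether the difference itself differed between the populations could not be tested with 1 array per condition.

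**Figure D3:**
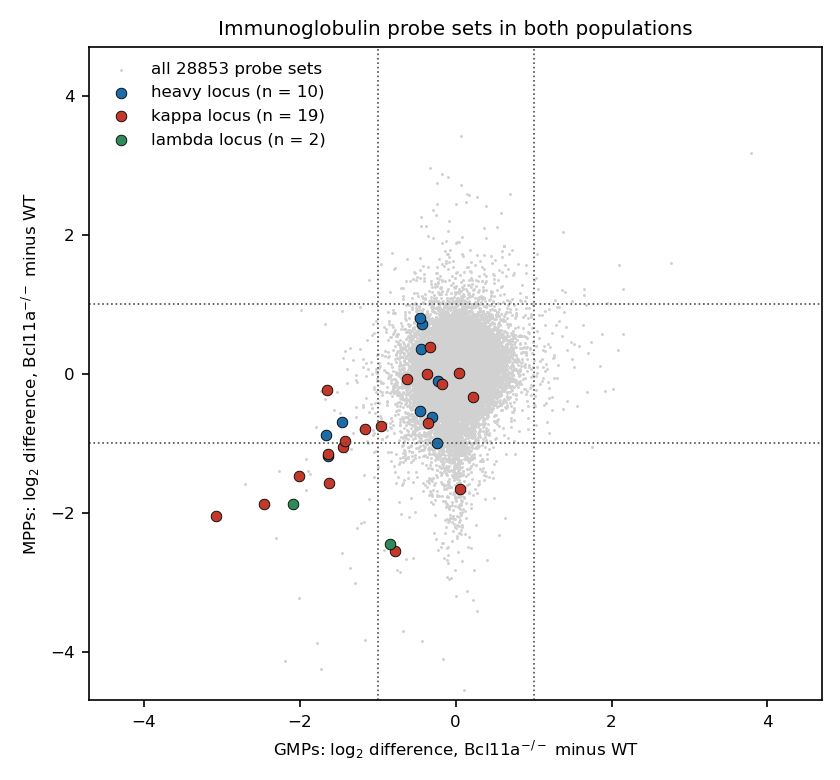
Log2 difference, Bcl11a-/- minus WT, in GMPs (x axis) against MPPs (y axis), with 1 point per probe set, the immunoglobulin members coloured by locus and all 28853 probe sets in grey. Dotted lines mark 2-fold, and the lower left corner holds the 8 members that were more than 2-fold lower in both populations.

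Fewer immunoglobulin probe sets passed 2-fold between the WT populations than between genotypes. In WT MPPs relative to WT GMPs 5 members were higher by more than 2-fold, beside 1.55% of all probe sets, and none was lower, beside 2.67%. The median log2 difference, WT MPPs minus WT GMPs, was 0.14 over the members and 0.06 over all probe sets. The 5 were Igkv6-14 with Igkv6-15, 4.28-fold higher, the lambda probe set 10438415, 3.47-fold higher, Igkv5-43, 2.47-fold higher, Igkv8-30, 2.04-fold higher, and the Igkv9-120 probe set 10538880. With signals under 5 set to 5, none of them remained over 2-fold. The log2 difference was −0.18 and −0.39 on the probe sets of Igha alone, and over the 6 members with the Igha symbol 4 were lower and 2 higher, all within 2-fold. After each of the 3 renormalizations tried, 1 member passed 2-fold downward and 4 upward.

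In Bcl11a-/- MPPs relative to Bcl11a-/- GMPs, 2 members were higher by more than 2-fold, beside 3.08% of all probe sets, and none was lower, beside 5.91%. These were the Igkv9-120 probe set 10538880, 3.33-fold higher, which had the very low signal in Bcl11a-/- GMPs, and 10403018, 2.69-fold higher. The median was 0.39 over the members and 0.11 over all probe sets. These comparisons share their arrays with those between genotypes.

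T cell receptor segments, which also rearrange and are also short and alike in sequence, gave a different picture on the same arrays. Of 53 T cell receptor probe sets, 1 passed 2-fold downward and none upward in Bcl11a-/- GMPs, with a median of 0.00, and 1 was lower and 1 higher in Bcl11a-/- MPPs, with a median of 0.12. Between 25 and 28 of them lay above the olfactory receptor level on each array. The T cell receptor probe set over 2-fold in GMPs, of Trgv6, Trgv4 and Trgv2, had a log2 signal of 6.40 in Bcl11a-/- GMPs and 7.58 in WT GMPs. Of 11 measured T cell genes, none passed 2-fold in GMPs and 1 was higher in Bcl11a-/- MPPs, with medians of 0.13 and 0.11.

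Lists of B lineage and related genes were read beside the immunoglobulin probe sets. Of 16 measured B precursor genes, 6 passed 2-fold downward in Bcl11a-/- GMPs and 13 in Bcl11a-/- MPPs, none upward in either, and the medians were −0.68 and −2.73. Above the olfactory receptor level were 8 of the 16 in Bcl11a-/- GMPs and 13 in WT GMPs, and 9 in Bcl11a-/- MPPs and 15 in WT MPPs. Cd79a, a signalling subunit of the B cell receptor, had a log2 signal of 3.39 in Bcl11a-/- GMPs and 5.59 in WT GMPs, 4.57-fold lower, and 3.30 in Bcl11a-/- MPPs and 7.44 in WT MPPs, 17.6-fold lower. With signals under 5 set to 5, the log2 difference of Cd79a was −0.59 in GMPs and −2.44 in MPPs. Between the WT populations, the B precursor list had a median log2 difference, WT MPPs minus WT GMPs, of 1.86, with 12 of 16 genes over 2-fold higher.

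Of 19 measured factors that rearrange or transcribe the immunoglobulin loci, 3 passed 2-fold downward in Bcl11a-/- GMPs and 7 in Bcl11a-/- MPPs, none passed it upward, and the medians were −0.27 and −0.78. Of the 7, 5 are also on the B precursor list: Ebf1, Pax5, Rag1, Rag2 and Dntt. Rag1, the catalytic subunit of the recombinase, had 3.71 in Bcl11a-/- GMPs and 4.42 in WT GMPs, and 3.42 in Bcl11a-/- MPPs and 6.27 in WT MPPs, 7.19-fold lower. For its partner Rag2 the difference downward was 1.20-fold in GMPs and 2.37-fold in MPPs. Dntt, the polymerase that adds nucleotides at the joints of rearranged segments, was 2.44-fold below WT in GMPs and 8.05-fold below WT in MPPs. With signals under 5 set to 5, the log2 difference of Dntt was −0.46 in GMPs and −3.01 in MPPs. Pou2af1, a coactivator of immunoglobulin promoters, stayed within 2-fold, with log2 differences of −0.66 in GMPs and −0.98 in MPPs.

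Among 16 plasma cell genes, 2 passed 2-fold downward in Bcl11a-/- GMPs and none in Bcl11a-/- MPPs, and the medians were −0.01 in both. Both are genes of antibody assembly. Jchain, which joins IgM and IgA into polymers, had a log2 signal of 3.19 in Bcl11a-/- GMPs and 4.98 in WT GMPs, 3.45-fold lower, and 4.44 in Bcl11a-/- MPPs and 5.21 in WT MPPs. Both GMP signals of Jchain were under the olfactory receptor level, and with signals under 5 set to 5 its log2 difference in GMPs was 0. Mzb1, a chaperone of antibody assembly, had 4.78 in Bcl11a-/- GMPs and 5.84 in WT GMPs, 2.08-fold lower, and 5.41 in Bcl11a-/- MPPs and 6.22 in WT MPPs. With the same floor the log2 difference of Mzb1 in GMPs was −0.84. Prdm1, the transcription factor that defines plasma cells, had 4.40 in Bcl11a-/- GMPs and 3.99 in WT GMPs, and 4.48 in Bcl11a-/- MPPs and 4.17 in WT MPPs. All of these Prdm1 signals were under the olfactory receptor level, so a fall could not have been seen. Sdc1, the plasma cell surface proteoglycan CD138, had 5.70 in Bcl11a-/- GMPs and 5.26 in WT GMPs, and 5.29 in Bcl11a-/- MPPs and 5.59 in WT MPPs. The list also holds genes that were bright on every array, such as Sec11c, with 10.4 in WT GMPs, and Creld2, with 8.46. Its medians therefore need not follow the amount of plasma cells.

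Of 16 measured mature B genes, 1 passed 2-fold downward in Bcl11a-/- GMPs and 3 in Bcl11a-/- MPPs, with medians of −0.11 and −0.03. The gene lower in both was Ms4a1, which encodes the B cell surface protein CD20, with 3.78 in Bcl11a-/- GMPs and 5.23 in WT GMPs, 2.74-fold lower, and 3.63 in Bcl11a-/- MPPs and 6.21 in WT MPPs, 5.98-fold lower. With signals under 5 set to 5, the log2 difference of Ms4a1 was −0.23 in GMPs and −1.21 in MPPs. Among 10 measured genes of plasmacytoid dendritic cells, which can also carry immunoglobulin transcripts, 1 was lower by more than 2-fold in GMPs and 3 in MPPs, with medians of −0.15 and −0.71. Spib, a transcription factor of these cells and of B cells, was 2.07-fold lower in Bcl11a-/- GMPs and 2.81-fold lower in Bcl11a-/- MPPs. The part of any of these cell types in the immunoglobulin signal was not tested.

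**Figure D4:**
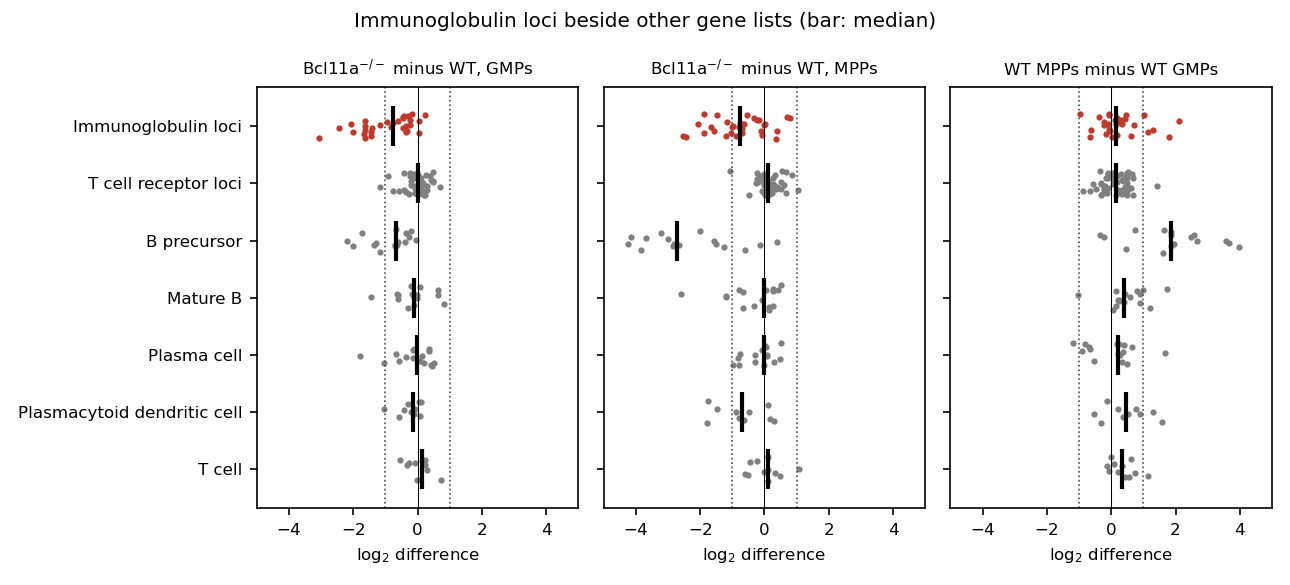
Log2 differences of the immunoglobulin and T cell receptor probe sets and of the genes of 5 cell type lists (1 point each) for Bcl11a-/- minus WT in GMPs, the same in MPPs, and WT MPPs minus WT GMPs, with the median as a black bar and 2-fold as dotted lines. The immunoglobulin medians are −0.78 in GMPs and −0.75 in MPPs, and the B precursor medians are −0.68 in GMPs and −2.73 in MPPs.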

How the data were processed

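The authors amplified total RNA, labelled it with biotin, hybridised it to a whole-transcript mouse array, and summarised probes by RMA with quantile normalization, in software whose version none of the sources used here gives. The values deposited by the authors are log2 signals; scanner files were not used here. Of 30177 rows, 1324 of the lowest numbers, none annotated, were set aside as controls, and no column was left unmapped. Symbols came from the platform annotation, under which 21789 probe sets have 1 symbol, 1621 several and 5443 none; all 30 immunoglobulin symbols of the members were found in a RefSeq table of GRCm38.p6, and no coordinates are given because none of the sources used here gives the build of the array annotation. The members, lists and alternatives were chosen with earlier results of these data known.

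Differences were taken on the log2 scale, Bcl11a-/- minus WT or MPP minus GMP, folds are 2 raised to them, and a call is a difference greater than 2-fold. With 1 array per condition no test was run. Genes outside the immunoglobulin and T cell receptor loci take the mean of the probe sets with that symbol alone. Named are members with a constant region symbol, the 8 largest differences in each direction among members with a log2 signal of at least 6, members over 2-fold in both populations, those nearest the limit, and from the lists the defining genes and up to 4 genes over 2-fold; the remaining members, Map3k20 and the T cell receptor probe set were named after their values were seen. Counting and lowess steps were tested on simulated data. Python 3.11.15, pandas 2.3.3, numpy 2.4.6 and statsmodels 0.14.6 were used. Alternatives were a floor at 5, a filter at 6, an olfactory receptor filter chosen after seeing the data, 3 renormalizations (including lowess with a span of 0.3), members with 1 symbol, 1 value per symbol set, all rows, and thresholds of 1.5-fold and 3-fold. The number of arrays limits the precision.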

Additional observations from a re-analysis of the deposited data

Results flagged for a closer look

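In 6 members the difference between Bcl11a-/- and WT cells had opposite signs in MPPs and GMPs, and no member was over 2-fold in both populations with opposite signs. The difference between the populations was not tested, since each condition has 1 array. Taken as the MPP difference minus the GMP difference on the log2 scale, it was 1.26 for Ighm on 10403069, 1.14 on 10403018 and 0.79 on 10403015, both of Ighg3, Igha, Ighv1-33 and Ighv1-26, and 0.72 for Igkv19-93 on 10545177. It was −1.71 for Igkv5-43 and −0.56 for Igkv8-30. Ighm on 10403069, Igkv5-43 and Igkv8-30 were under the olfactory receptor level on all 4 arrays.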

How the results depend on the processing

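No median and no count of calls changed direction under any alternative run for it, with exceptions given below. WT MPPs against WT GMPs gained calls downward, and Bcl11a-/- against WT MPPs gained 2 calls upward at 1.5-fold. With signals under 5 set to 5, members over 2-fold numbered 7 in GMPs, 4 in MPPs, 4 in both, 0 for WT MPPs against WT GMPs and 1 for Bcl11a-/- MPPs against Bcl11a-/- GMPs, with median log2 differences of −0.065 in GMPs and −0.18 in MPPs. Among members whose log2 signal reached 6 on either array the counts were 7, 4, 4, 0 and 1, of 8, 9, 6, 10 and 3 members kept. The medians were −1.63 in GMPs and −0.97 in MPPs. All 8 members kept in GMPs and 8 of the 9 in MPPs reached 6 on the WT array. This filter thus favours members that are high in WT cells, and its medians lend the difference no support. Of all probe sets it kept, 0.38% were lower by more than 2-fold in GMPs and 4.82% in MPPs. With 1-symbol members alone they were 3, 3, 2, 2 and 0, with medians of −0.36 and −0.34. With 1 value per symbol set there were 7 in MPPs and 5 in both, with a median of −0.80 in MPPs. Above the olfactory receptor level, a filter chosen after seeing the data, there were 3 for WT MPPs against WT GMPs and 1 for Bcl11a-/- MPPs against Bcl11a-/- GMPs. With this filter the medians were −1.54 in GMPs and −1.05 in MPPs. It kept 16 members in GMPs and 19 in MPPs, and each of them passed on the WT array. These medians are therefore also shaped by the selection and lend the difference no support. At 1.5-fold there were 21 in MPPs (19 lower, 2 higher), 15 in both, 10 for WT MPPs against WT GMPs (3 lower, 7 higher) and 10 for Bcl11a-/- MPPs against Bcl11a-/- GMPs, and at 3-fold 6, 3, 2 and 1. The median in GMPs was −0.81 after new quantile normalization, −0.79 after centring on the median and −0.80 after lowess, and in MPPs −0.85, −0.79 and −0.85. Under each of these, WT MPPs against WT GMPs had 1 member lower and 4 higher. The floor and the filters leave fewer low signals by construction, and the cause of the other changes was not tested. No replicate block was fitted, since each condition has 1 array, and an additive fit of genotype and population over the 4 arrays was not run. Depth cannot be given for arrays; most members lay near the level of olfactory receptor probe sets, where a difference between dim signals is least precise.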

Other observations

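Between the numbers of the immunoglobulin probe sets lie 46 probe sets with no symbol here, 24 within the heavy and 22 within the kappa run. The array's numbering follows the genome in part, since 94.3% of 21762 neighbouring pairs of named probe sets were on the same chromosome, but a number does not place a probe set in a locus. These 46 were singled out after their values were seen. Of them, 7 passed 2-fold downward in Bcl11a-/- GMPs, 7 were lower and 2 higher in Bcl11a-/- MPPs, and 5 were lower in both, 4 of these within the kappa run. Of all probe sets, 0.35% were lower in GMPs, 2.51% lower and 1.39% higher in MPPs, and 0.121% lower in both. The median log2 differences of the 46 were −0.18 in GMPs and −0.06 in MPPs, so most of them moved little. The brightest of the 5 on both WT arrays, 10545208, had a log2 signal of 4.22 in Bcl11a-/- GMPs and 6.93 in WT GMPs, and 5.47 in Bcl11a-/- MPPs and 7.06 in WT MPPs. The brightest on both Bcl11a-/- arrays, 10403060, lies within the heavy run. It had 5.11 in Bcl11a-/- GMPs and 6.15 in WT GMPs, and 5.80 in Bcl11a-/- MPPs and 6.92 in WT MPPs. Probe set 10545215 had 3.69 in Bcl11a-/- GMPs and 5.61 in WT GMPs, and 2.92 in Bcl11a-/- MPPs and 4.59 in WT MPPs. Probe set 10545231 had 3.46 in Bcl11a-/- GMPs and 4.87 in WT GMPs, and 4.61 in Bcl11a-/- MPPs and 5.74 in WT MPPs.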
